A study of Mus musculus with 3 samples.

Results

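The rule for vascular smooth muscle cells took 249 of 16627 cell barcodes from 3 single-cell libraries of the mouse arcuate nucleus. A barcode was a member if it held 250 or more detected genes and no more than 20% mitochondrial transcripts, and if at least 3 of the 6 genes Acta2, Myh11, Tagln, Tpm2, Pln and Myl9 had at least 2 unique molecular identifiers (UMIs, each marking 1 captured transcript). The 6 genes also had to sum to at least 10 UMIs and to more than the endothelial genes Cldn5, Flt1, Ly6c1 and Itm2a together. These 6 genes therefore describe the members, and their levels carry no test.

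The tissue came from male C57BL/6JRj mice, 5-6 weeks old, given diets from weaning. The control group ate standard chow (SC) for 15 days, a second group was moved after 10 days of SC to 5 days of a diet high in fat and sugar (HFHS, labelled 58%), and the last ate HFHS for 15 days. The arcuate nuclei of 6 mice per diet were pooled into 1 suspension and 1 library with a droplet kit that reads the 3' end of transcripts. Diet and library cannot be told apart, so no diet comparison below has a p-value, and intervals cover counting error only.

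Smooth muscle cells wrap arterioles and set their diameter. Calcium bound to calmodulin activates myosin light chain kinase, which drives myosin along thin filaments of smooth muscle actin, while cyclic GMP and cyclic AMP relax the cell. Pericytes share the basement membrane and the Notch3 and PDGF receptor signals of the vessel wall, but they lie on capillaries and carry an ATP-sensitive potassium channel made of Kcnj8 and Abcc9 and little contractile protein.

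The SC, 5-day and 15-day libraries held 59315940, 52735770 and 43193012 UMIs, and 5610, 4906 and 6111 barcodes passed the gene and mitochondrial limits. Values given in threes below keep this order of libraries. Before these limits the libraries held 7116, 6204 and 7823 barcodes. Of these, 13 (SC and 5-day), 72 (SC and 15-day) and 85 (5-day and 15-day) sequences were shared. Among the 85 SC members 8 carried a barcode that another library also held, and among the 73 5-day members 20 did. None of the 91 15-day members did. In no library did a muscle-dominant member, as defined below, carry one. Doublet scores marked 1 member.

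Members made up 1.52% of the SC barcodes (85, 95% exact Clopper-Pearson interval 1.21% to 1.87%), 1.49% of the 5-day barcodes (73, 1.17% to 1.87%) and 1.49% of the 15-day barcodes (91, 1.20% to 1.83%). The 3 intervals overlapped almost completely. Near the thresholds, 20 members had a 6-gene sum of 10 to 12, 18 barcodes outside had 3 of the genes but a smaller sum, and 153 had a sufficient sum over 2 genes. A further 35 were kept out by their endothelial genes.

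The label went against the data for most members. Each member's 6-gene sum was compared with its UMIs for marker lists of 10 other cell types, and the 6 genes exceeded all 10 lists together in 70 members (28.1%), called muscle-dominant here. Ependymal markers (Ccdc153, Tmem212, Foxj1) led in 99 members, oligodendrocyte markers in 32, pericyte markers in 21, astrocyte markers in 16, neuronal markers in 2 and endothelial markers in 1. In the other 8 the muscle list led without exceeding the rest. This division was made after the values were seen, so it is a description and gets no test.

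**Figure D1:**
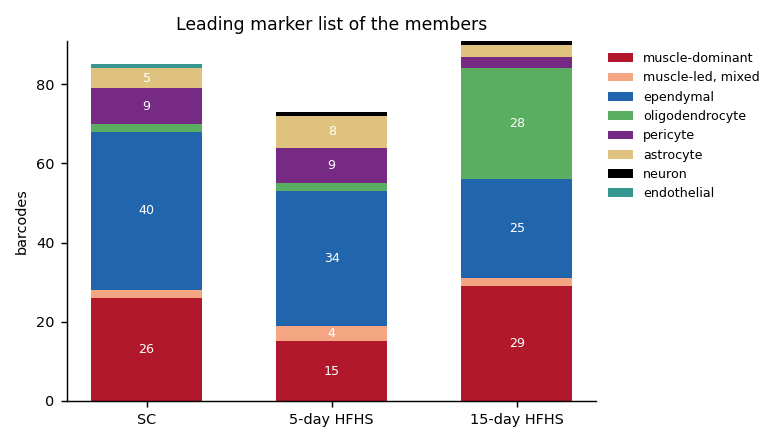
Stacked bars give the number of members by leading marker list in each library. Muscle-dominant members number 26, 15 and 29, ependymal-led members 40, 34 and 25, and 28 of the 32 oligodendrocyte-led members lie in the 15-day library.

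Muscle-dominant members made up 0.463% (0.303% to 0.678%), 0.306% (0.171% to 0.504%) and 0.475% (0.318% to 0.681%) of the passing barcodes. The 5-day share was the lowest, and its interval overlapped both others. Their median depth was 7507, 8105 and 6023 UMIs. The 6 genes made up a median of 4.55% of a muscle-dominant cell's UMIs (range 0.864% to 9.46%). In ependymal-led members the median was 0.0799%, at a median depth of 39924 UMIs.

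**Figure D2:**
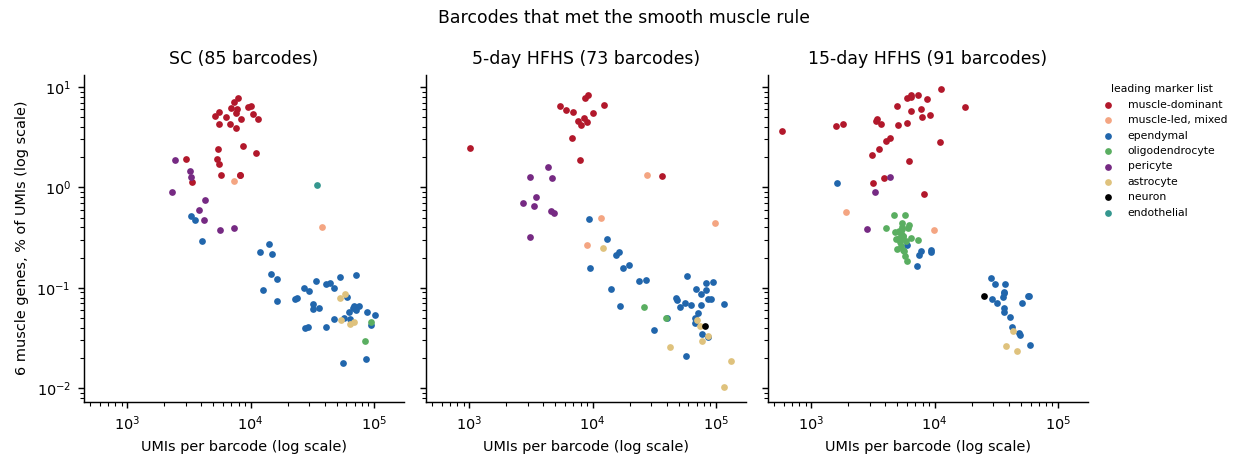
Each point is 1 member, with its UMIs on the x axis and the 6 rule genes as a percent of UMIs on the y axis, both on log scales, coloured by leading marker list. Muscle-dominant members lie between 0.864% and 9.46%, and ependymal-led members reach the rule at much higher depth.

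In the 99 ependymal-led members, Acta2 reached 2 UMIs in 99, Myl9 in 99 and Tagln in 93. The smooth muscle myosin gene Myh11 and the phospholamban gene Pln had no UMI in any of the 99, which allows a share of up to 3.03% of barcodes with a UMI. Both genes also lacked a UMI in 4 of the 70 muscle-dominant members. Ependymal-led barcodes met the rule more often when they were deep. Of ependymal-led barcodes, 4 of 856 under 5000 UMIs were members (0.467%), 22 of 182 from 5000 to 20000 UMIs (12.1%) and 73 of 116 above that (62.9%). Their 6-gene level was 745, 824 and 800.2 UMIs scaled to a sum of 1000000 per class and library (CPM) inside the rule and 524, 461 and 624 CPM in ependymal-led barcodes outside it. Acta2 alone was at 430, 452 and 433 CPM inside and at 265, 249.8 and 383 CPM outside.

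The 15-day library held 28 oligodendrocyte-led members against 2 and 2 in the other libraries. They lay in a narrow band of depth around 5461 UMIs, and the 6 genes summed to 3340 CPM in them against 39.3 CPM in the other oligodendrocyte-led barcodes of that library. All 28 also had UMIs of endothelial, microglial and astrocyte markers, and 27 had UMIs of ependymal, neuronal or tanycyte markers, each counted separately. Across 16180 genes, log2(CPM + 10) of their summed profile had a Pearson r of 0.87 with the whole library, against 0.78 for muscle-dominant members and 0.93 for the other oligodendrocyte-led barcodes. Genes are not independent replicates, and these sets are part of the library. Whether these 28 barcodes hold single cells was not tested.

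Of the 6 rule genes, Pln codes for an inhibitor of the calcium pump of the sarcoplasmic reticulum. The others code for parts of the contractile machinery. The smooth muscle actin gene Acta2 lies on chr19:34241090-34255590, the myosin heavy chain gene Myh11 on chr16:14194535-14291372, the actin-binding transgelin gene Tagln on chr9:45929619-45936058, the beta-tropomyosin gene Tpm2 on chr4:43514711-43523765, the phospholamban gene Pln on chr10:53337667-53345987 and the regulatory light chain gene Myl9 on chr2:156775420-156781658 (GENCODE vM21, GRCm38). Many contractile genes carry a CArG box, the binding sequence of serum response factor: CC, then 6 bases that are A or T, then GG, which reads alike on both strands. RefSeq promoter windows (GRCm38.p6, 250 bases before to 50 after the start) were found for Acta2, Myl9, Tpm2 and Pln. The windows of Acta2 and Myl9 held a full box or a near match with 1 inner base that is G or C. They are shown 5′ to 3′ with 10 bases on each side because these are the genes the members were chosen by, and the capitals mark the box.
Acta2, near match 84 bases before the RefSeq start, chr19:34255438-34255467, minus strand: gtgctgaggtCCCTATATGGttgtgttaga
Acta2, near match 34 bases before the start, chr19:34255388-34255417, minus strand: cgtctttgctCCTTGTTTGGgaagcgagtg
Myl9, full box 161 bases before the start, chr2:156775293-156775322, plus strand: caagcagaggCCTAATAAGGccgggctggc
Myl9, near match 99 bases before the start, chr2:156775355-156775384, plus strand: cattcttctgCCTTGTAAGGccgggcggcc
The Acta2 matches lie before the RefSeq start but within the GENCODE span of the gene given above. Of 27025 windows of 300 bases, 1.57% held a full box and 8.58% a near match. Of the 31 genes in a list of thin-filament and anchoring proteins, 26 matched a window, of which 6 held a full box (Fhl2, Cnn2, Actg1, Vcl, Ldb3 and Fhl1) and 3 a near match (Tpm3, Synm and Pdlim3). Of the 17 genes of that list that were higher than in pericytes in the comparison below, 14 matched a window, of which 1 held a full box (Cnn2, 7.14%) and 2 a near match. A match is a string of letters, and no factor binding was measured.

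Acta2 was at 16803, 17022 and 17697 CPM in the muscle-dominant members and at 7.77, 5.49 and 14.7 CPM in the 374 pericytes, which were chosen by 6 genes of their own. Tagln was at 11639, 11579 and 15831 CPM against 5.55, 6.87 and 10.5. Myh11 was at 2276, 2235 and 2698 CPM against 27.8, 20.6 and 44.0. All 3 genes chose the members and were low in pericytes. A barcode that met the smooth muscle rule could not be a pericyte. Pericytes also had to hold a smaller sum of the 6 muscle genes than of their own 6. Low levels of the muscle genes in pericytes are thus partly set by the choice. Tpm2 was at 4061, 4818 and 6731 CPM against 131, 102 and 128, and Myl9 at 6759, 6685 and 8193 CPM against 1416, 1489 and 1710.2. Pln, the inhibitor of the calcium pump of the sarcoplasmic reticulum, was at 1499.7, 1208 and 1231 CPM and had no UMI in the pericytes of the 3 libraries. Pericyte-led members, which could not be pericytes here, had Pln at 27.4, 117 and 95.4 CPM. Acta2 had a UMI in all 70 muscle-dominant members. In endothelial cells, at a median of 5382.5 to 9649 UMIs, it had one in 4.42%, 5.24% and 3.90%.

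Pericytes were chosen by Kcnj8, Abcc9, Higd1b, Vtn, Atp13a5 and Ndufa4l2, so their levels are likewise a description with a direction that the choice fixes. Kcnj8 was at 15.8, 13.9 and 5.78 CPM in muscle-dominant members and at 977, 1029 and 937 CPM in pericytes. Abcc9 was at 21.1, 13.9 and 5.78 CPM against 575, 603 and 736. Higd1b, the other gene named for the contrast, was intermediate at 523, 521 and 520.0 CPM against 1318, 1298 and 1444. Of the 70 muscle-dominant members, 62 had no UMI of Kcnj8 or Abcc9 and 16 had none of the 3 genes. Still, 27 of the 70 met the count thresholds of the pericyte rule, and Higd1b, Ndufa4l2 and Vtn were detected in many of them.

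Muscle-dominant members were defined by exceeding the summed markers of the other cell types, so low values of those are built in. Ependymal markers summed to 275, 236 and 260.0 CPM over 3 genes, above the 42.2, 42.6 and 92.2 CPM in pericytes. Few muscle-dominant members held them: Tmem212 had a UMI in 8 of 70, and Ccdc153 and Foxj1 in 4 each. Oligodendrocyte markers summed to 312, 305 and 393 CPM over 4 genes, against 1583, 2997 and 1115.0 CPM in pericytes. Endothelial markers summed to 507, 48.6 and 23.1 CPM over 8 genes, with Tek at 0, and 1 SC cell held 89 of these UMIs. Astrocyte markers summed to 79.2, 1145 and 162 CPM over 5 genes, and 1 5-day cell of 36437 UMIs held 159 of these UMIs. Microglial markers summed to 0, 6.94 and 428 CPM over 4 genes, and 1 cell of the last library held 62 of these UMIs. Fibroblast markers summed to 158, 243 and 318 CPM over 6 genes, with Lum and Slc6a13 at 0. In the pericytes compared, red blood cell genes summed to 15888, 89.3 and 18.9 CPM and neuronal markers to 1041, 2920.3 and 788 CPM. Their part in the differences between the cell types was not tested.

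Muscle-dominant members were compared with pericytes gene by gene on (CPM + 5), and a gene was counted where it was at least 2-fold apart in the same direction in all 3 libraries. Of 9717 genes with at least 30 UMIs, leaving out the rule genes of both sets, 258 were higher (2.66%) and 749 lower (7.71%), with a median log2 ratio of -0.43. Median-of-ratios scaling moved that median to -0.24 and gave 337 higher and 568 lower. Sets are called overlapping below where the summed values of their 3 libraries overlap. The members were picked, and the pericytes limited, by genes of the contractile group. A count for that group is therefore a description and is set beside these background shares.

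Genes of the thin filament and its anchors were higher in 17 of 28 measured (median log2 2.08), and 1 was lower. Tpm1, the alpha-tropomyosin gene, was at 3289.9, 3297 and 4172 CPM in muscle-dominant members against 314, 294 and 415 CPM in pericytes, a mean log2 ratio of 3.38 ± 0.08 (SD over 3 libraries). Lmod1, which nucleates actin filaments in smooth muscle, was at 660.1, 625 and 896 CPM against 23.3, 26.1 and 21.0. For both genes the 3 muscle-dominant sums lay above the 3 pericyte sums, while single cells overlapped: in SC, Tpm1 went down to 181 CPM in a muscle-dominant cell and up to 2404 CPM in a pericyte.

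Pdlim3, a scaffold on alpha-actinin, was at 317, 354 and 376 CPM against 2.22, 1.37 and 2.10 (log2 5.68 ± 0.18). It had a UMI in 60 of 70 muscle-dominant members and in 3 of 374 pericytes. Des, the desmin gene, was at 412, 430.4 and 219.6 CPM against 104, 104 and 136 and fell short of 2-fold in the 15-day library. Cald1, the thin-filament inhibitor caldesmon, was at 2667, 2284 and 2785 CPM against 2636, 2543 and 2934, so the 2 sets overlapped. Fhl2, an adaptor at focal adhesions, was the member of the list that was lower, at 10.6, 13.9 and 5.78 CPM against 90.0, 64.6 and 44.0.

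Of the genes that switch myosin on and off, 6 of 17 were higher and 3 lower. The myosin light chain kinase gene Mylk was at 1616, 1874 and 2120.4 CPM against 247, 251 and 279 (log2 2.82 ± 0.12), and the essential light chain gene Myl6 at 7604, 7067 and 8846 CPM against 1238, 1011 and 1297. Both arms of the switch were among the higher genes: the myosin phosphatase subunits Ppp1r12a, Ppp1r12b and Ppp1cb and the kinase Rock1 that inhibits the phosphatase. Rhoa, which activates Rock1, was at 496, 500 and 324 CPM against 506, 490 and 335. The non-muscle myosins Myh9 and Myh10 and Arhgap42 were lower, Myh9 at 148, 118 and 86.7 CPM against 353, 309 and 415.

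Of the calcium store genes 5 of 15 were higher and 1 lower. Atp2a2, the calcium pump that Pln inhibits, was at 628, 847 and 670.2 CPM against 228, 239 and 224. Mrvi1, which links cyclic GMP kinase to the calcium release channel, was at 296, 410 and 341 CPM against 62.2, 38.5 and 56.6. The release channel Itpr1 overlapped between the sets, and Itpr2 was lower, at 21.1, 0 and 23.1 CPM against 167, 184 and 193. None of 14 calcium and cation channels was higher. Cacna1c, the pore of the voltage-gated calcium channel, was at 58.1, 76.4 and 92.4 CPM against 40.0, 72.8 and 44.0. Trpc4 was lower, at 26.4, 6.94 and 5.78 CPM against 79.97, 86.5 and 77.5.

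The potassium channels, counted without Kcnj8 and Abcc9, had 3 of 10 higher and none lower. The voltage-gated channel Kcna5 was at 180, 201 and 121 CPM against 11.1, 4.12 and 6.29, and Kcnab1, a subunit that modulates such channels, at 222, 201 and 127 CPM against 5.55, 6.87 and 4.19. Kcnk3, a background potassium channel, was at 100.3, 132 and 75.1 CPM against 18.9, 19.2 and 23.1. In all 3 libraries these genes stood apart from pericytes, while the large-conductance channel subunit Kcnmb1 was at 111, 139 and 86.7 CPM against 38.9, 53.6 and 48.2 and was not 2-fold higher in the 15-day library.

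**Figure D3:**
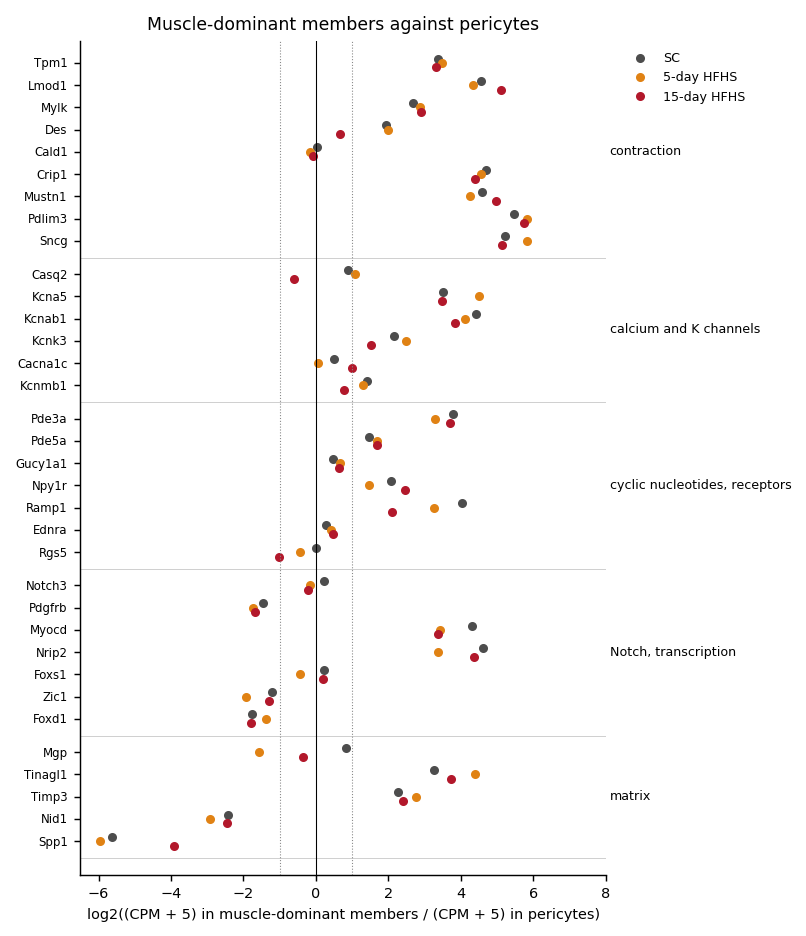
Points give log2((CPM + 5) in muscle-dominant members over (CPM + 5) in pericytes) for genes by role, 1 point per library, with dotted lines at 2-fold. Pdlim3 lies near 5.68 in the 3 libraries, Cald1 near -0.07 and Pdgfrb near -1.62, while Mgp lies on both sides of 0.

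Of the cyclic nucleotide genes 4 of 20 were higher and 1 lower. Phosphodiesterases that break down cyclic nucleotides were higher, namely Pde3a at 708, 604 and 468 CPM against 46.6, 57.7 and 31.4, Pde5a at 422, 500 and 433 CPM against 151, 152 and 132, and Pde1a. The nitric oxide receptor subunit Gucy1a1 was at 686, 611 and 716 CPM against 499, 380 and 457, under 2-fold in each library. Its partner Gucy1b1 was at 407, 167 and 428 CPM against 663, 588 and 618.

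Receptors for vasoactive signals had 2 of 22 higher and 2 lower (median log2 -1.06). Npy1r, a receptor for neuropeptide Y, was at 375, 312 and 491 CPM against 85.5, 109.9 and 85.9, and Ramp1, a subunit of the receptor for the dilator peptide CGRP, at 296, 347 and 295 CPM against 13.3, 31.6 and 64.97. The endothelin receptor Ednra was at 195, 180 and 202 CPM against 159, 135 and 145. Adcyap1r1, a receptor for the peptide PACAP, was lower at 0, 6.94 and 28.9 CPM against 34.4, 103 and 71.3. Among G-protein regulators, Rgs4 was at 882, 993 and 768 CPM against 956, 915 and 822, and Rgs5 at 4684, 3242 and 2265 CPM against 4666, 4376 and 4571, so neither separated the sets in the SC library.

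In the Notch, PDGF and TGF-beta list 5 of 30 were higher and 5 lower. Notch3, the receptor shared by both cell types, was at 438, 382 and 370.2 CPM against 379, 431 and 434 and overlapped. Its ligand Jag1 was at 185, 160 and 156 CPM against 49.98, 57.7 and 48.2. The PDGF receptor Pdgfrb was lower at 401, 368 and 376 CPM against 1106, 1234 and 1211, while the ligand Pdgfa was higher at 317, 264 and 318 CPM against 63.3, 76.9 and 75.5. Bmp4 was lower at 5.28, 0 and 5.78 CPM against 82.2, 107 and 88.0.

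Of 26 transcription factors 1 was higher and 3 were lower. Myocd, the coactivator of serum response factor, was at 116, 48.6 and 46.2 CPM and had a UMI in 24 of 70 muscle-dominant members. In pericytes it was at 1.11, 0 and 0 CPM. Foxf2, Foxd1 and Zic1 were lower, Zic1 at 137, 90.2 and 121 CPM against 325, 360.0 and 308. Foxs1, Nr2f2 and Ebf1 overlapped between the sets.

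Matrix and adhesion genes split, with 11 of 48 higher and 9 lower. Crip1, a small LIM protein placed in this list, was at 8908, 8198 and 13861 CPM against 338, 342 and 654. Tinagl1 was at 697, 791 and 861 CPM against 68.9, 33.0 and 60.8, the metalloproteinase inhibitor Timp3 at 1051, 1027 and 1288 CPM against 215, 147 and 241, and the laminin chain Lama5 at 164, 243 and 162 CPM against 7.77, 4.12 and 18.9. The laminin chains Lama2, Lama4, Lamb1, Lamc1 and Lamc3 were lower, as was the linker Nid1 at 89.8, 62.5 and 92.4 CPM against 502, 504 and 530.2. The collagens Col4a1 and Col4a2 were below pericytes in each library by less than 2-fold. Fbln1 had no UMI in muscle-dominant members against 101, 97.5 and 67.1 CPM in pericytes.

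Caveola and junction genes had 4 of 8 higher, namely Cav1, Cav2, Cavin1 and Cavin3, and 1 lower. Cavin1 was at 1125, 1089.9 and 988 CPM against 127, 75.5 and 98.5. The arterial connexin gene Gja4 was at 602, 611 and 647 CPM against 337, 386 and 373. Of 9 genes linked to the switch out of the contractile state, Spp1 had no UMI in muscle-dominant members against 244, 304 and 71.3 CPM in pericytes. In this list 1 gene was higher, S100a11, and 3 were lower. No gene of the glycolysis (18), heat shock (11) or endoplasmic reticulum chaperone (20) lists met the 2-fold count, and 2 of 28 nuclear respiratory chain genes did, with 27 of the 28 having a mean log2 ratio above 0, against 2526 of all 9717 genes.

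**Figure D4:**
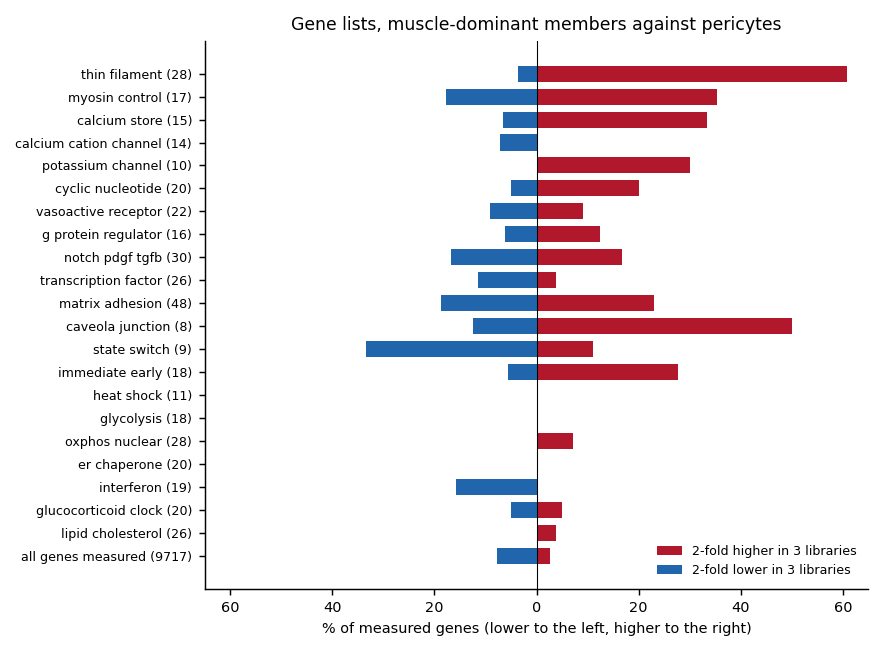
Bars give, for each gene list with its number of measured genes, the percent at least 2-fold higher (right) or lower (left) in muscle-dominant members than in pericytes in all 3 libraries, with all 9717 genes at the bottom. Thin-filament genes reach 60.7% higher, against 2.66% for all genes.

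Muscle-dominant members varied among themselves. Those in which the 6 genes made up under 3% of UMIs (21 cells, 10, 3 and 8 per library) were set beside the 49 above that share. Acta2 was at 6860.0 CPM in the first and 21654 CPM in the second, as the split implies. Cnn1, the calponin gene of mature contractile cells, had no UMI in the 21 cells and was at 258 CPM in the 49, where 16 cells held it. Lmod1 was at 267 and 932 CPM and Mylk at 879 and 2289 CPM. Vtn, a pericyte marker, was at 1524 and 476 CPM, Rgs5 at 5811 and 2419 CPM, and Abcc9 at 45.6 CPM and 0. Notch3 was at 378 and 408 CPM and Gucy1a1 at 599 and 708 CPM, nearly level. The division at 3% was set after the data were seen and is a range along a score.

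Among all 249 members and 8361 genes, those whose log2(CPM + 1) went most closely with the mean of the 6 rule genes were Mylk (Pearson r 0.86), Myl6 (0.85), Crip1 (0.84), Filip1l (0.84), Actb (0.82), Mustn1 (0.82), Pde3a (0.82), Map3k7cl (0.81), Mrvi1 (0.81) and Gja4 (0.80). The cells share 3 libraries, range widely in depth and hold several cell types, and the part of that mixture in the order was not tested. Within the 70 muscle-dominant members the order was led by Myl6 (0.86), Mylk (0.75), Crip1 (0.74), Tpm1 (0.66) and Pdlim3 (0.66).

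All 249 members were also tested as 1 class against pericytes, with UMIs summed per class and library and the library as a block. The 3 libraries, each of another diet, served as the replicates. Sums of members, pericytes and endothelial cells were fitted together. The p-values therefore rest on the spread of class differences between these libraries, estimated over all 3 classes. The class keeps the mixture of cells described above. By edgeR's quasi-likelihood test with Benjamini-Hochberg adjustment, 3178 of 13228 genes were higher (24.0%) and 2839 lower (21.5%). Against 1328 endothelial cells, 4118 were higher (31.1%) and 3818 lower (28.9%). The 15 largest rises over pericytes included the ependymal markers Tmem212 and Ccdc153. Tmem212 was at 1784, 1918 and 1632 CPM against 11.1, 6.87 and 21.0 (log2 7.33 ± 0.37 SE, edgeR adjusted p = 3.3e-07), and Ccdc153 at 1560.2, 1588 and 1534 CPM against 7.77, 23.4 and 44.0 (log2 6.31 ± 0.38, edgeR adjusted p = 7.3e-07). Stoml3, C3, Crygn, Ccdc33, Fam166c, Sntn and Cdhr4 were among the 15 largest. In muscle-dominant members Tmem212 was at 153, 139 and 144 CPM, with a UMI in 8 of 70 cells.

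Among the genes that fell, Nid1 was at 17.3, 10.1 and 17.7 CPM in members against 502, 504 and 530.2 CPM in pericytes (log2 -4.99 ± 0.19, edgeR adjusted p = 1.6e-07). Ifitm1 was at 24.5, 19.5 and 20.8 CPM against 929.6, 1021 and 1065 (log2 -5.37 ± 0.28, edgeR adjusted p = 3.5e-07). The largest falls included the membrane transporters Slc6a13, Slc22a8 and Slc6a20a, the collagen Col3a1 and the signalling ligand Nodal. Of the thin-filament list, 16 of 30 genes rose and 8 fell. Pdlim3 rose (log2 5.78 ± 0.36, edgeR adjusted p = 8.7e-07), Lmod1 rose (log2 1.78 ± 0.38, edgeR adjusted p = 0.0034), and Tpm1 (log2 0.45 ± 0.18, edgeR adjusted p = 0.065) and Mylk (log2 -0.40 ± 0.19, edgeR adjusted p = 0.11) did not pass. Npy1r fell in this test (log2 -0.95 ± 0.27, edgeR adjusted p = 0.017), although it was higher in muscle-dominant members.

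Diets were compared by size alone: at least 50 UMIs in both libraries together, a ratio of at least 2, a 95% counting interval that clears equality by a fixed margin, and a UMI in at least 25% of the cells of the higher library. Over all members, 6 of 10211 genes were higher (0.0588%) and 30 lower (0.294%) after 5 days of HFHS than in SC. After 15 days 79 of 9247 were higher (0.854%) and 31 lower (0.335%). The mixture of cells differed between libraries. Microglial genes led the 15-day list, with C1qb at 2.01 CPM in SC and 189 CPM at 15 days (246 UMIs, 37.4% of members). The same library held the 28 mixed oligodendrocyte-led members, and without them 49 genes were higher.

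In the muscle-dominant members alone, 21 of 1038 genes were higher (2.02%) and 18 lower (1.73%) at 5 days, and 18 of 1110 were higher (1.62%) and 16 lower (1.44%) at 15 days. Thin-filament genes stayed nearly level, with no call among 21 measured at 5 days (median log2 0.02) and 1 among 23 at 15 days (median 0.16). That gene was Cnn1, at 79.2 CPM in SC, 125 CPM at 5 days and 335 CPM at 15 days, with UMIs in 5 of 26, 3 of 15 and 8 of 29 cells. The 15-day log2 ratio to SC was 2.08 (1.24 to 3.01).

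Of the 8 genes named as higher at 5 days, Gja1, Scd2, Canx, Msi2, Tgfb2, Hspa5, Pnisr and Cpe, several are known from glia, and 1 cell of 36437 UMIs carried much of the signal. Gja1 went from 15.8 to 458 CPM, but 63 of its 66 UMIs at 5 days came from 1 cell, and without the top cell in each library 3 UMIs stood against 1. Without the largest cell 3 genes met the size rule in place of 21, and without the top cell of each gene none did. Hspa5, a chaperone of the endoplasmic reticulum, went from 312 to 666 CPM (log2 1.10, 0.61 to 1.59, and 0.87 without the top cell in each library). Tgfb2 went from 84.5 to 249.9 CPM (16 and 36 UMIs, log2 1.56, 0.68 to 2.51, and 1.70 without the top cell in each library). In pericytes Hspa5 was at 691 and 649.7 CPM.

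Among the genes lower at 5 days was Mgp, the matrix inhibitor of calcification, which was at 2482 CPM in SC, 499.8 CPM at 5 days and 1496 CPM at 15 days. The 5-day log2 ratio to SC was -2.31 (-2.69 to -1.95), with a UMI in 80.8% of SC cells and in 12 of 15 5-day cells. Of the 470 SC UMIs 211 came from 1 cell, the log2 ratio was -1.88 without the top cell in each library, and the median cell was at 332 CPM in SC and 399.9 CPM at 5 days, so the difference in the sums was not seen in the medians. In pericytes Mgp was at 1405 and 1508 CPM. Id1 and Id3, targets of BMP signals, were also lower. Id3 was at 518, 125 and 601 CPM in the 3 libraries, and in pericytes at 148, 133 and 128 CPM.

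At 15 days the genes named as higher included Junb, Cnn1, S100a6, Sh3bgr, Ier3 and Vps28. Sh3bgr was at 73.9 CPM in SC and 248 CPM at 15 days (log2 1.75, 0.85 to 2.73), and had no UMI in the pericytes of either library. It had a UMI in 38.5% of SC and 41.4% of 15-day cells, so the share of cells with it was nearly level. Among the genes lower were Ogn, Ptn, Akap12, Tcf15, Casq2 and Tmbim6. Tcf15, a transcription factor, went from 459 to 191 CPM (log2 -1.27, -1.89 to -0.68), with a UMI in 88.5% of SC and 37.9% of 15-day cells. Casq2, a calcium buffer of the sarcoplasmic reticulum, was at 227, 278 and 98.2 CPM.

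Immediate-early genes, which cells transcribe within minutes of a stimulus, had the most genes past the size rule of the lists in the muscle-dominant members at both times. Over all members none of 17 was past it at 5 days and 4 of 18 were higher at 15 days. In muscle-dominant members at 5 days 4 of 6 measured genes were lower (Btg2, Jun, Fos and Dusp1), with a median log2 of -1.53 against -0.14 for all genes. At 15 days 4 of 9 were higher (Btg2, Junb, Fos and Ier3), with a median of 0.76 against -0.05. Measured genes had at least 50 UMIs in both libraries together, so some entered mainly through the library where they were higher. Jun had 47 UMIs in SC and 8 at 5 days, and Junb 31 in SC and 122 at 15 days. These counts and medians are thus partly set by the filter. Fos was at 565 CPM in SC (exact Poisson interval 463 to 683), 174 CPM at 5 days (112 to 256) and 1358 CPM at 15 days (1189.7 to 1543). Fos had a UMI in 42.3% of SC and 40% of 5-day cells, Jun in 50% and 33.3%, and Btg2 in 57.7% and 40%. Junb was at 164, 55.5 and 705 CPM. In pericytes Fos was at 28.9, 19.2 and 6.29 CPM and in endothelial cells at 43.1, 55.7 and 83.6 CPM.

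The 20 genes of the list together made up 2936, 1347 and 5593 CPM in muscle-dominant members. The 5-day to SC ratio was 0.459 (0.388 to 0.541) and the 15-day to SC ratio 1.90 (1.71 to 2.12), and without the top cell of each library the ratios were 0.456 and 1.94. Cells of 1 library ranged widely: from 173 to 11236 CPM in SC, from 0 to 3647 CPM at 5 days and from 462 to 13751 CPM at 15 days, with medians of 1923, 1101 and 3696 CPM, so the 3 sets of cells overlapped. Pericytes of the same libraries were at 1506, 1602 and 1436 CPM and endothelial cells at 2147, 2203 and 2195 CPM. The tissue was digested with enzymes before capture, and the part of dissociation in these values was not tested.

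**Figure D5:**
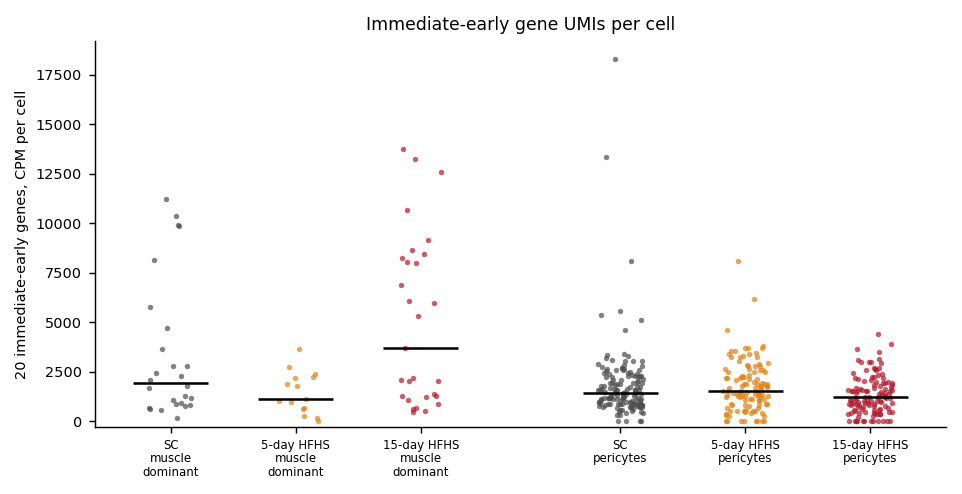
Each point is 1 cell, with the summed CPM of 20 immediate-early genes on the y axis and medians as bars, for muscle-dominant members (left) and pericytes (right) of each library. Muscle-dominant medians are 1923, 1101 and 3696 CPM in the SC, 5-day and 15-day libraries, and single cells overlap between libraries.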

How the data were processed

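The authors deposited 1 matrix of raw UMI counts per gene and barcode for each library, with whole numbers throughout. The submitters' processing notes name Cell Ranger, SAMtools, Scanpy 1.4.4 and the build GRCm38. The file headers give software version 3.1.0. The annotation for counting is not given in the sources used here. No barcode had fewer than 500 UMIs.

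The members and the gene lists were chosen with earlier results of these data known. Scrublet in Scanpy 1.11.5 called 0.0178%, 0.0408% and 1.41% of barcodes as doublets, so its own threshold failed in the SC and 5-day libraries. Barcodes with the highest scores (0.8% per 1000 barcodes) were marked and left out in an alternative only. Counts of a class were added up within each library and scaled to CPM. Classes were tested with edgeR 4.0.16 in R 4.3.3 (TMM, filterByExpr, the library as a block because each class sum comes from the same libraries, adjusted p under 0.05), tested on simulated data first. DESeq2 1.42.0 was an alternative. CPM intervals were exact Poisson, and ratio intervals exact conditional binomial, at 95%. Python 3.11.15, NumPy 2.4.6, SciPy 1.17.1, pandas 2.3.3 and Matplotlib 3.10.9 were used.

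Genes were named by list membership, or as the 15 largest differences in each direction from pericytes with at least 100 CPM in every library of the higher class. For diets, up to 8 genes per direction with a ratio of at least 1.5 without the top cell were named. Likeness names the 10 highest r. Unnamed gene models, ribosomal protein, mitochondrial and hemoglobin genes were counted but not named, and a few other items are not reported here. Immediate-early CPM per cell was summed over 20 genes.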

Additional observations from a re-analysis of the deposited data

Results flagged for a closer look

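Above the limit of 20% mitochondrial UMIs, 5 barcodes met the rest of the smooth muscle rule, a signal in barcodes that no comparison used. The SC library held 3 of them among 1459 barcodes over the limit. All 3 were muscle-dominant, with 743 to 2570 UMIs, a 6-gene sum of 11 to 43 and 27.7% to 29.6% mitochondrial UMIs. The 5-day library held 2 among 1222, of which 1 was muscle-dominant, with 1892 to 7790 UMIs and a 6-gene sum of 18 to 388. The 15-day library held none among 1451.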

How the results depend on the processing

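No paired analysis was possible because each diet has 1 library, which concerns the diet comparisons only. With at least 4 marker genes, the shares of members were 0.642%, 0.591% and 0.736%. Without members that met the count thresholds of pericytes, endothelial cells or fibroblasts, they were 1.07%, 1.04% and 1.15%. That setting is called other thresholds below. Ependymal, oligodendrocyte, astrocyte and neuronal markers were not checked in it. The 15-day share was 1.83% at no more than 10% mitochondrial UMIs and 0.949% with a 6-gene sum of at least 20. Against pericytes, the edgeR calls (higher and lower) without the replicate block of libraries were 3233 and 2986, and that block changed no count by over 1.5 times. With muscle-dominant members only they were 898 and 687, leaving out 1 library gave 2327 to 2731 higher and 2055 to 2190 lower, and DESeq2 gave 2886 and 2327.

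Diet counts depended on the settings. At 15 days, genes higher in members were 268 with every cell of equal weight (no counting interval applies there), 47 with cells thinned to 2000 UMIs, 125 without members meeting other thresholds, 18 in muscle-dominant members and 49 without oligodendrocyte-led members. Genes lower were 516, 70 (sum of at least 20), 17 (at most 10% mitochondrial), 15, 16 (muscle-dominant members) and 48. At 5 days, genes higher were 179, 1 when thinned, 11 at 10% mitochondrial and 10 without the highest doublet scores. Further counts were 28, 21 (muscle-dominant members) and 14 (without barcodes in 2 libraries). Genes lower at 5 days were 174, 3 when thinned, 58, 18 (muscle-dominant members) and 12. In muscle-dominant members, genes higher at 5 days were 0 without the top cell of each gene, 3 without the largest cell and 13 with equal weight, and genes lower 11 under median-of-ratios scaling and 34 with equal weight. Genes lower at 15 days were 25 with equal weight. Genes lower than in pericytes were 351 of 4868 measured with at least 100 UMIs (against 749 of 9717), and 1169 to 1302 when 1 library was left out, where fewer libraries had to show the difference.

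Log2 ratios that changed sign were those of Fxyd5 (0.38, thinned), Gamt (0.0695, without shared barcodes), Nfasc (0.53 without members meeting other thresholds, 0.39 in muscle-dominant members), Ptgds (-0.45, without oligodendrocyte-led members) and Snhg11 (0.28, 0.62 and 0.22 under other thresholds, muscle-dominant members and no shared barcodes). For single genes, 820 values kept direction and side, 118 fell short of the threshold and 8 changed sign. The test against pericytes gave 469 of the kept values and 1 that fell short. In the diet comparisons over all members, 108 values kept, 39 fell short and 4 changed sign at 5 days. At 15 days these were 156, 45 and 4. In muscle-dominant members, 38 kept and 26 fell short at 5 days, and 49 and 7 at 15 days. The cause of these changes was not tested. With 15 to 29 muscle-dominant cells per library, 1038 and 1110 genes had enough UMIs for the diet comparison, so genes with fewer UMIs were not compared.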
